A study of Mus musculus with 2 samples.

Results

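The miR-106b-25 and miR-106a-363 clusters are the paralogs of the better known miR-17-92 cluster of microRNA genes. Their 9 genes (Mir106b, Mir93 and Mir25 in the first, and Mir106a, Mir18b, Mir20b, Mir19b-2, Mir92-2 and Mir363 in the second) were taken by symbol from 2202 miRNA genes in the deposited tables, and all 9 were found. The libraries came from C2C12, a myoblast line started from injured thigh muscle of C3H mice, whose cells divide in culture and can fuse into myotubes. They hold RNA shorter than 30 nucleotides. The design has a single group of 2 biological replicates of this 1 line. The labels give no treatment, culture stage or second condition, so levels are compared between genes and between the replicates only.

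A microRNA is cut from a hairpin in a longer transcript, and 1 arm of the hairpin is usually kept as the mature strand. It pairs with target messenger RNAs mainly through its seed, bases 2 to 8, so microRNAs with the same seed share many predicted targets. The miR-106b-25 genes lie within Mcm7, which encodes a subunit of the helicase that unwinds DNA for replication and is driven by E2F factors in dividing cells. The X-linked miR-106a-363 genes are best known from embryonic cells and as a retroviral insertion site in mouse T-cell leukaemia. Members of both clusters are known repressors of cell cycle inhibitors and of apoptosis genes.

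The mature sequences show which members could act alike. They are given 5′ to 3′ from RefSeq (GRCm38.p6) with the seed in capitals, for the arm usually taken as the mature product, and all 9 members had an entry. Each hairpin gene has 1 count, in which its arms are not told apart. The first seed is shared by 4 members and by miR-17-5p and miR-20a-5p of the miR-17-92 cluster:
miR-106b-5p: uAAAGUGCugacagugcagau
miR-93-5p: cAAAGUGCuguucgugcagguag
miR-106a-5p: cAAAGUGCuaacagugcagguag
miR-20b-5p: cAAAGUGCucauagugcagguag
miR-17-5p: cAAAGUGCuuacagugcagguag
miR-20a-5p: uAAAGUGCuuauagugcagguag

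A second seed is shared by 3 members and belongs to the miR-25 and miR-92a family. The miR-92a-3p sequence is encoded in Mir92-2 and again in Mir92-1 of the miR-17-92 cluster:
miR-25-3p: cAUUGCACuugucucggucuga
miR-92a-3p: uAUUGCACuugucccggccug
miR-363-3p: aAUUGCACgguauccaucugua

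The remaining members carry the miR-18 and miR-19 seeds, which have no counterpart in the miR-106b-25 cluster. The miR-19b-3p sequence is encoded in both Mir19b-2 and Mir19b-1:
miR-18b-5p: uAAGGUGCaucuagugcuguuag
miR-18a-5p: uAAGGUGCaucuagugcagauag
miR-19b-3p: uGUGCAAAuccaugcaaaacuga

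The clusters differed in setting. On mm10, the miR-106b-25 hairpins lie within 498 bases of chromosome 5 on the minus strand, in the order of transcription Mir106b (138165737 to 138165818), Mir93 (138165523 to 138165610) and Mir25 (138165321 to 138165404). All 3 are intronic to the protein-coding transcripts of Mcm7 (138164583 to 138172422, same strand) in GENCODE M21. Mir93 and Mir25 also overlap an exon of an Mcm7 transcript annotated as a retained intron. The miR-106a-363 hairpins span 875 bases of the X chromosome on the minus strand, from Mir106a (52742503 to 52742567) through Mir18b (52742331 to 52742413), Mir20b (52742113 to 52742192), Mir19b-2 (52741983 to 52742066) and Mir92-2 (52741838 to 52741928) to Mir363 (52741693 to 52741767). No annotated gene of another type spans them, and Mir106a overlaps an exon of the non-coding gene Kis2 by 5 bases. The G and C content of the hairpins was 55.7% to 63.1% in the miR-106b-25 cluster and 38.1% to 47.3% in the miR-106a-363 cluster, so the ranges did not overlap.

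Values are reads on the strand of the gene, per 1e+06 such reads on all miRNA genes of the library (CPM). These totals were 27661907 in replicate 1 and 15025315 in replicate 2, of which Mir21a alone took 23.1% and 53.5%. Of the 8 members with reads, 7 had a lower CPM in replicate 2, all but Mir19b-2, and the SD of a CPM includes this difference in the share of Mir21a. Of 556 genes with at least 10 reads over both libraries, 54.7% were called lower in replicate 2 by these totals and 4.68% higher. Of the members, 5 were called lower and 0 higher (exact binomial test, adjusted p under 0.05 for both). CPM was not divided by hairpin length. The muscle-specific Mir206 had 2559 and 1028 CPM, and 4 of 8 genes on the muscle list reached 1 CPM in both libraries. The rest of these were lower, Mir133b at 88.0 and 20.4, Mir1b at 4.45 and 2.86 and Mir486 at 3.94 and 1.13 CPM. Mir1a-2 had 3 reads in replicate 1 and 0 in replicate 2. No read fell on the other 3, Mir1a-1 and both Mir133a genes, each with another gene for the same mature sequence. Whether shared sequence affected these counts was not tested. Of the other lists, the blood gene Mir142 had 215 and 122 CPM, and the endothelial Mir126a 213 and 134 CPM. The blood list summed to 220 and 126 CPM with 2 of 5 genes at 1 CPM or more in both libraries, and the hepatocyte gene Mir122 had 3.90 and 1.26 CPM. On the neural list 5 of 6 genes had no read in either library, and on the pluripotency list 5 of 9. The part of such RNA in the members' counts was not tested. In bulk RNA, fewer expressing cells and less RNA per cell cannot be told apart.

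The Mcm7 cluster was expressed at a high level and the X-linked cluster at a very low one. Summed over its genes, miR-106b-25 reached 10401 CPM in replicate 1 and 5371 in replicate 2, or 0.789% ± 0.356 of the counted reads (SD, n = 2). The 6 genes of miR-106a-363 together had 55.6 and 35.3 CPM, a mean of 45.4 ± 14.4 CPM (SD, n = 2). Within each library, which needs no scaling between them, miR-106b-25 held 99.5% of the reads of both clusters in replicate 1 (exact 95% Clopper-Pearson interval 99.44 to 99.49) and 99.3% in replicate 2 (99.29 to 99.40). The ratio of the clusters was 187 in replicate 1 and 152 in replicate 2, a mean of 170 ± 24.6 (SD, n = 2). The distance between the clusters was far larger than this spread, though an exact paired sign-flip test over 2 libraries cannot give a p below 0.5. Intervals reflect counting error alone and treat each read as a separate draw. Reads amplified by PCR without molecular identifiers need not be separate molecules. The intervals may thus be too narrow, and p-values computed from read counts too low. Whether different mature sequences were captured equally was not tested, so ratios between genes are ratios of reads.

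**Figure D1:**
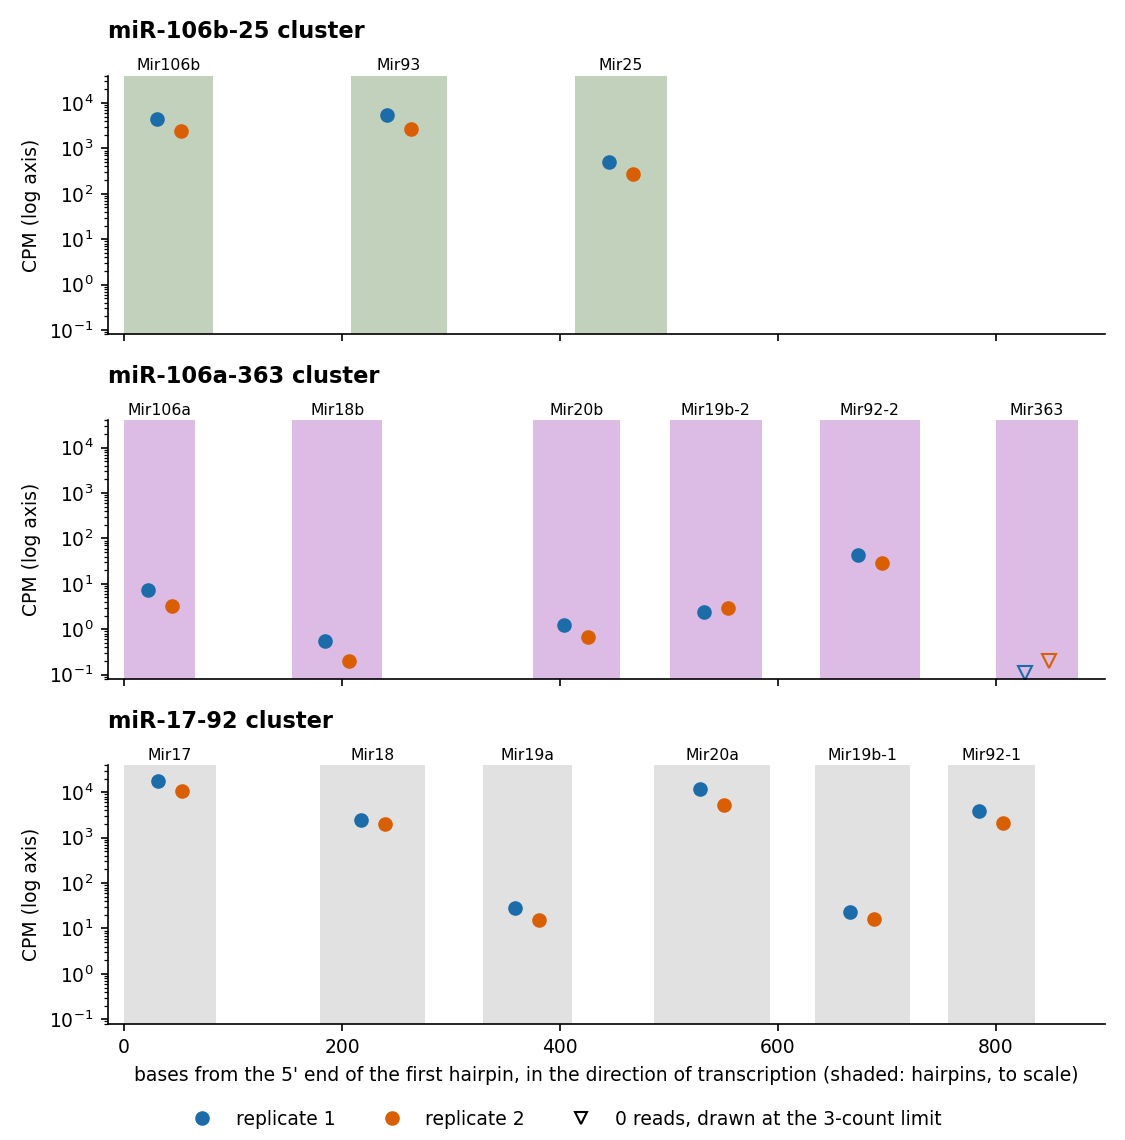
Level of each hairpin gene (CPM, log axis) against its place in the cluster (bases from the start of the first hairpin), for the miR-106b-25, miR-106a-363 and miR-17-92 clusters, with 1 point per library. All 3 miR-106b-25 genes lie above 200 CPM in both libraries, while in miR-106a-363 only Mir92-2 exceeds 10 CPM and Mir363 has no read (open triangles mark the limit of 3 counts).

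Of the 9 members, 6 reached 1 CPM in both libraries, against 14.5% of all 2202 genes (320 genes). They were the 3 genes of miR-106b-25 and Mir106a, Mir19b-2 and Mir92-2. With Mir21a left out of the library totals Mir20b passed too, giving 7 members. A level of 10 CPM in both libraries was reached by 4 members, and 8 had at least 1 read in both. Among all 2202 genes, 777 had a read in replicate 1 and 690 in replicate 2. An average of at least 10 CPM was reached by 210 of the 556 genes with at least 10 reads over both libraries. These counts use other rules than those for the members. The numbers of all genes with 10 CPM in both libraries, or with a read in both, were not counted. Nor was the number that pass with Mir21a left out. The median of the mean levels was 3403 CPM over the miR-106b-25 genes and 1.79 CPM over the miR-106a-363 genes, beside 43.9 CPM over the 320 detected genes and 0 CPM over all genes. No read was counted on the strand opposite to any of the 9 hairpins in either library.

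Mir93, whose mature strand is a known repressor of the cell cycle inhibitor Cdkn1a, was the highest member. Its level was 5455 CPM (150893 reads) in replicate 1 and 2728 CPM (40991 reads) in the other library, and its mean of 4092 ± 1928 CPM (SD, n = 2) was rank 36 among all genes, just below Mirlet7e and just above Mir15a. Mir106b, which shares the seed of Mir93 and its action on Cdkn1a, had 4438 and 2369 CPM, a mean of 3403 ± 1463 (SD, n = 2). The ranges of Mir93 and Mir106b overlapped between the libraries. Inside each library Mir93 nonetheless had more reads, by 1.23-fold in replicate 1 (exact interval 1.22 to 1.24) and 1.15-fold in replicate 2 (1.14 to 1.17). Per base of hairpin the ratio was 1.15 and 1.07.

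Mir25, known to repress the proapoptotic gene Bcl2l11 and the cell cycle inhibitor Cdkn1c, was the low member of the cluster. Replicate 1 gave it 508 CPM (14049 reads) and replicate 2 gave it 274 CPM (4121 reads). Mir106b exceeded it 8.74-fold and 8.64-fold, and Mir93 exceeded it 10.7-fold and 9.95-fold. As shares of the cluster's reads, Mir93 took 51.6% ± 1.17, Mir106b 43.4% ± 1.01 and Mir25 4.99% ± 0.158 (SD, n = 2 for each), so the order Mir93, Mir106b, Mir25 was the same in both libraries.

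The hairpins of these genes are shown with the usual mature strand in capitals, because that strand lies in the 5′ arm of Mir106b and Mir93 and in the 3′ arm of Mir25 (GENCODE M21, coordinates as above, minus strand):
Mir106b: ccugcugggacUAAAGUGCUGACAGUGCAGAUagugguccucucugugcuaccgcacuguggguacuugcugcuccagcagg
Mir93: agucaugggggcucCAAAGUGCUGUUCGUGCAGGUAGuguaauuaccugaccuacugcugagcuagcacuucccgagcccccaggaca
Mir25: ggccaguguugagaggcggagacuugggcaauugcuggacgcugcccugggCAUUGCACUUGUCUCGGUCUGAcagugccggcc

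None of these 3 mature strands occurs in another annotated miRNA hairpin. Their longest stretches shared with another miRNA hairpin of GENCODE M21 ran to 14 bases for Mir106b, 13 for Mir93 and 14 for Mir25. The rest of the genome was not searched.

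In the X-linked cluster the reads fell mostly on Mir92-2, a source of miR-92a, which is known to repress integrin alpha 5 and vessel growth. Mir92-2 stood at 44.2 CPM (1224 reads) and 28.2 CPM (423 reads) in replicates 1 and 2, a mean of 36.2 ± 11.4 CPM (SD, n = 2) and rank 168 among all genes, between Mirlet7a-2 and Mir6539. It took 79.6% of the cluster's reads in replicate 1 (exact interval 77.5 to 81.6) and 79.8% in replicate 2 (76.1 to 83.1). Its share was thus nearly equal in the 2 libraries. Per base of hairpin, the order of the members from Mir93 down to Mir18b was the same as by reads in both libraries.

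Mir106a, whose mature strand carries the seed of miR-17-5p, came next in the X-linked cluster with 7.23 CPM (200 reads) and 3.33 CPM (50 reads). Mir19b-2, a source of miR-19b, had 2.35 CPM (65 reads) and 2.93 CPM (44 reads). The order of these neighbours was clear in replicate 1, where Mir106a exceeded Mir19b-2 by 3.08-fold (exact interval 2.32 to 4.14), but not in replicate 2, where the ratio was 1.14 (0.743 to 1.74). Mir20b, whose mature strand is a known repressor of Hif1a, had 34 and 10 reads, or 1.23 and 0.666 CPM, and Mir18b 15 and 3 reads, or 0.542 and 0.2 CPM. Mir20b was 2.27-fold higher than Mir18b in replicate 1 (1.20 to 4.48), and in replicate 2 the interval of the ratio, 0.858 to 18.8, took in equality.

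Mir363 closes the cluster, and no read was counted on it. A count of 0 was taken to allow up to 3 reads, or 0.108 CPM in replicate 1 and 0.2 in replicate 2. This floor is a setting and not an exact interval like those above. With the floor taken per library, Mir363 was at least 408-fold lower than its neighbour Mir92-2 in replicate 1. In replicate 2 it was at least 141-fold lower. Both values hold for the reads as assigned to Mir92-2. Its mature sequence occurs in no other annotated hairpin.

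**Figure D2:**
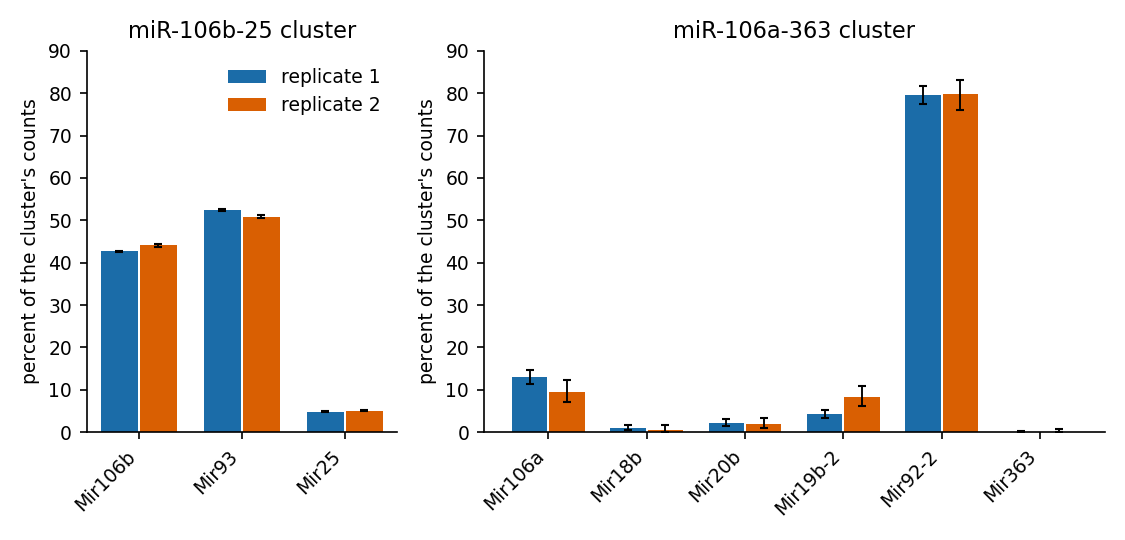
Share of each gene in the reads of its own cluster (percent, bars from 0), with 1 bar per library and exact 95% intervals. Mir93 and Mir106b split most of miR-106b-25, with Mir25 near 5% in both libraries, and Mir92-2 holds close to 80% of miR-106a-363.

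For 2 of the X-linked members the reads cannot be tied to a single gene by the mature sequence alone. The Mir92-2 hairpin shares a stretch of 22 bases with Mir92-1 on chromosome 14, and the 21 bases of miR-92a-3p lie inside it. The 25 bases that Mir19b-2 shares with Mir19b-1 likewise contain the 23 bases of miR-19b-3p. The pairs are shown with the shared stretch in capitals, since reads that end inside the capitals fit both genes and longer reads fit 1:
Mir92-2: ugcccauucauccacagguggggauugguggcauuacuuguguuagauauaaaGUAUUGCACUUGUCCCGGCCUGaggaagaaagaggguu
Mir92-1: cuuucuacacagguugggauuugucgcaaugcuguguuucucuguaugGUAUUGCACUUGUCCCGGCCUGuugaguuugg
Mir19b-2: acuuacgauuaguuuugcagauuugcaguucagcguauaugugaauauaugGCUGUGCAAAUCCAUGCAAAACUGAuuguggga
Mir19b-1: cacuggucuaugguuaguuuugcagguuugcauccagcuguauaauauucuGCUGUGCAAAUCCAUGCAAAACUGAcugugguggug

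Mir92-2 had 1.12% of the reads of Mir92-1 in replicate 1 (exact interval 1.05 to 1.18) and 1.32% in replicate 2 (1.20 to 1.46), although both hairpins encode the same mature sequence. Mir19b-2 had 10.2% (7.80 to 13.2) and 17.9% (12.7 to 24.7) of the reads of Mir19b-1, which itself was at 23.0 and 16.4 CPM. The tables give reads with several mapping places in a row apart from the gene counts. That row made up 33.4% and 22.8% of the sum of all rows, gene counts included. The tables do not say whether such reads also enter the counts of Mir92-2, Mir92-1, Mir19b-2 and Mir19b-1, so these percentages hold only for the reads as assigned. How many of them belong to miR-92a or miR-19b was not tested. Without the 2 shared genes, miR-106a-363 summed to 6.60 CPM on average.

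Mir106a, Mir20b and Mir18b have mature sequences of their own that stand close to an abundant paralog. Substitutions are given with the base of the miR-17-92 member first, the position from 1 at the 5′ end, and then the base of the X-linked member. Between miR-17-5p and miR-106a-5p the only change is U10A, and Mir106a had 0.0404% of the reads of Mir17 in replicate 1 (exact interval 0.0350 to 0.0464) and 0.0314% in replicate 2 (0.0233 to 0.0414). Between miR-20a-5p and miR-20b-5p the changes are U1C and U10C, and Mir20b had 0.0102% and 0.0126% of the reads of Mir20a. Between miR-18a-5p and miR-18b-5p they are A18U and A20U, and Mir18b had 0.0224% and 0.00973% of the reads of Mir18. The intervals of each of these 3 ratios overlapped between the libraries. Whether misread copies of the abundant paralogs entered these counts was not tested.

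Against the same paralogs, the Mcm7 cluster stood much closer to miR-17-92. Mir106b had 24.8% of the reads of Mir17 in replicate 1 and 22.3% in replicate 2, where Mir17 was at 17903 and 10609 CPM. Mir93 had 45.4% and 51.7% of the reads of Mir20a. Mir25 had 12.8% and 12.9% of the reads of Mir92-1, a ratio that was nearly equal in the libraries. Of the reads of all 3 paralog clusters, miR-17-92 took 78.2% ± 0.807, miR-106b-25 21.6% ± 0.821 and miR-106a-363 0.129% ± 0.0138 (SD, n = 2 for each). Mir92-1 and Mir19b-1 share their mature sequences with Mir92-2 and Mir19b-2, so values that include these genes hold for assigned reads only. With the genes of shared mature sequence left out, miR-17-92 took 76.3% on average.

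Grouped by seed, the contribution of each cluster depended on the family. The miR-17-5p seed, with 7 genes in the tables, had 39823 and 20988 CPM. Mir106b and Mir93 supplied 24.8% of it in replicate 1 and 24.3% in replicate 2, and Mir106a and Mir20b 0.0212% and 0.0190%. The remaining reads came from Mir17 and Mir20a, and the seventh gene, Mir6383, had none.

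The miR-25 and miR-92a seed had 4881 and 2597 CPM over 7 genes. Mir25 supplied 10.4% and 10.6% of it, Mir92-2 0.907% and 1.08%, and Mir92-1 81.2% and 82.0%. Outside the paralog clusters this seed is carried by Mir32 at 245 ± 130 CPM, Mir92b at 20.7 ± 11.4 CPM (SD, n = 2 for each) and Mir367, a gene of pluripotent cells, with no read. By reads assigned to a gene, Mir25 was ahead of Mir32 in both libraries (508 against 337 CPM and 274 against 153 CPM). The sum of this seed, the share of Mir25 in it and the split of miR-92a between Mir92-1 and Mir92-2 hold for assigned reads only.

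The miR-18 seed came almost wholly from Mir18, with 0.0224% and 0.00973% from Mir18b. By assigned reads, the miR-19 seed was low in all its genes, with 53.3 and 34.5 CPM in sum. Mir19b-2 held 4.41% (exact interval 3.42 to 5.59) and 8.49% (6.24 to 11.2) of this sum, from 65 and 44 reads. The miR-19 seed was the only one of the 4 in which the assigned share of the X-linked cluster exceeded 2% in both libraries. The split of miR-19b between Mir19b-1 and Mir19b-2 holds for assigned reads only.

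**Figure D3:**
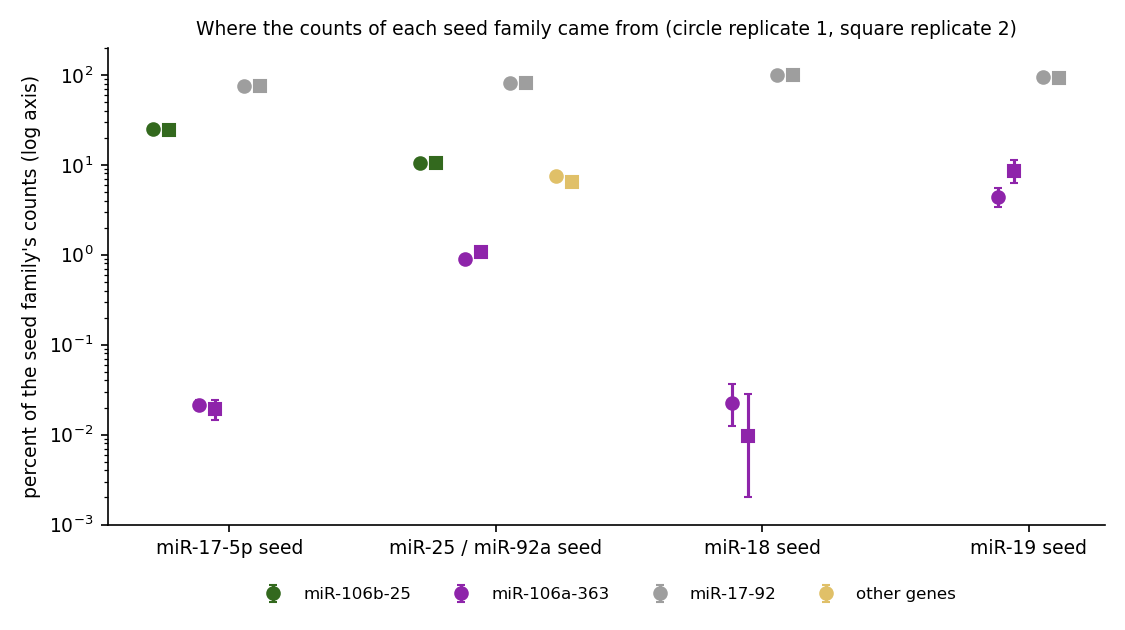
Share of each seed family's reads (percent, log axis) that came from each cluster or from other genes, with circles for replicate 1, squares for replicate 2 and exact 95% intervals. Sources with no read are not drawn, and shares are of reads as assigned to genes. The miR-106b-25 points stand near 25% for the miR-17-5p seed and near 10% for the miR-25 and miR-92a seed, while the miR-106a-363 points range from about 0.01% to about 8%.

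The libraries were compared to see how far the members varied between replicates. After trimmed-mean (TMM) scaling in edgeR, which sets aside the genes with the most extreme ratios, each gene with at least 10 reads was tested with an exact binomial test and Benjamini-Hochberg adjustment over 556 genes. This test compares 2 libraries against counting noise and says nothing of conditions. It called 41.5% of the 556 genes, 24.6% higher and 16.9% lower in replicate 2. Of the 8 tested members it called 3, a share close to that background, 2 of them higher and 1 lower in replicate 2. The median log2 ratio of the 8 members was 0.00, beside 0.09 over all tested genes.

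The genes of miR-106b-25 matched closely. Mir25 had 372 scaled CPM in replicate 1 and 374 in replicate 2, a log2 ratio of 0.01 (counting SE 0.026, adjusted p = 0.895, exact binomial test). Mir106b had 3251 and 3233 scaled CPM, a log2 ratio of -0.01 (counting SE 0.0087, adjusted p = 0.531, exact binomial test). Mir93 was lower in replicate 2, with 3996 and 3724 scaled CPM and a log2 ratio of -0.10 (counting SE 0.0080, adjusted p = 1.43e-36, exact binomial test). That difference, a ratio of 0.932, was resolved by the depth and was small beside the median absolute log2 ratio of 0.33 over the 210 tested genes with a mean of at least 10 CPM.

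Ratios between members need no scaling, and Fisher's exact test (two-sided, adjusted over 4 comparisons) gave the same picture. Mir106b over Mir25 differed 1.01-fold between the libraries (adjusted p = 0.53, Fisher's exact test). Mir93 over Mir106b differed 1.07-fold (adjusted p = 9.93e-15, Fisher's exact test) and Mir93 over Mir25 1.08-fold (adjusted p = 7.87e-05, Fisher's exact test), both lower in replicate 2. The ratio of miR-106b-25 to miR-106a-363 was 1.23-fold lower in replicate 2 (adjusted p = 8.42e-05, Fisher's exact test). Of the X-linked reads in this ratio, 79.6% and 79.8% were on Mir92-2, whose mature sequence is also encoded in Mir92-1. Whether the ratio differed between the libraries without the members of shared mature sequence was not tested.

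In the X-linked cluster Mir19b-2 had the highest ratio with this scaling, a 2.33-fold higher scaled level in replicate 2 and a log2 ratio of 1.22 (counting SE 0.28, adjusted p = 0.0001, exact binomial test). Mir92-2 was 1.19-fold higher in replicate 2 (adjusted p = 0.00816, exact binomial test). These are the members whose mature sequence has a second source, and whether that bears on the calls was not tested. Of those second sources, Mir19b-1 was called higher at a log2 ratio of 0.41, and Mir92-1 was not called at 0.0016. Mir106a, Mir20b and Mir18b did not pass, with log2 ratios of -0.21, 0.06 and -0.37, and their counting SEs of 0.23, 0.51 and 0.85 leave differences of that order undetectable at this depth.

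The calls depended on the scaling. By library totals, as in the CPM values, 59.4% of the tested genes were called, with 4.68% higher and 54.7% lower in replicate 2, and of the members none was called higher and 5 lower. Mir19b-2 then stood at a log2 ratio of 0.32, the smallest change of the X-linked genes with reads, and did not pass. Mir106a was called at -1.11 (adjusted p = 5.11e-07, exact binomial test), and Mir25, Mir92-2 and Mir20b changed sign. With DESeq2 size factors 41.5% of the tested genes were called, 22.3% higher and 19.2% lower. Mir106b was then called lower in replicate 2 at a log2 ratio of -0.07, and Mir92-2 no longer passed, so 1 member was called higher and 2 lower. The shares and ratios within a library are free of this choice.

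**Figure D4:**
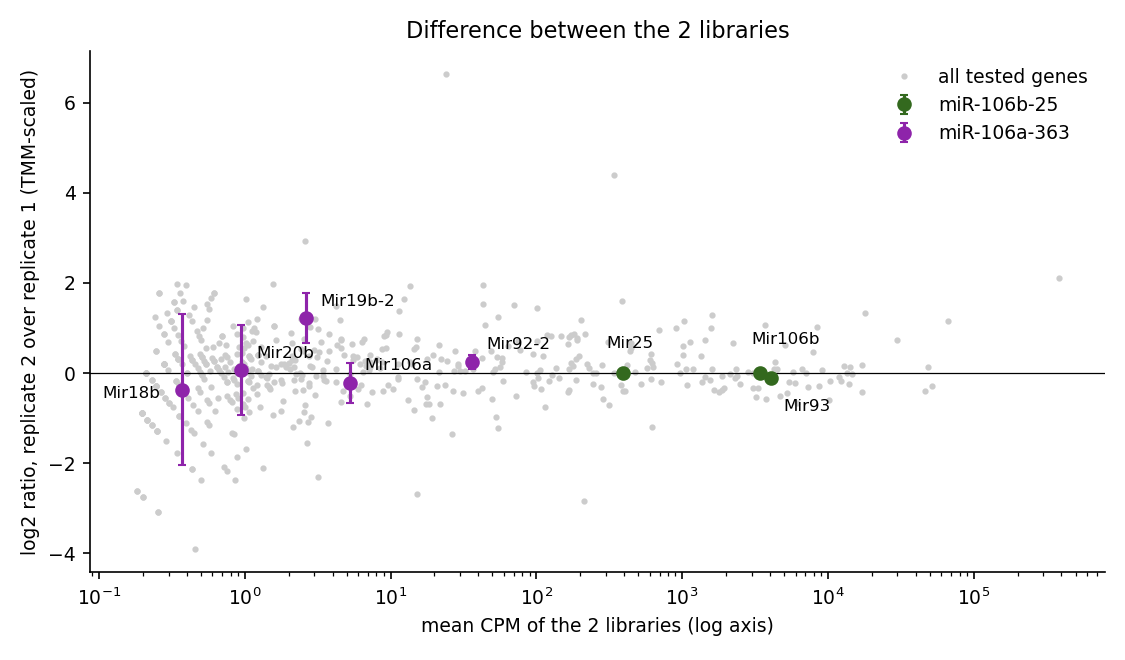
Log2 ratio of replicate 2 over replicate 1 after TMM scaling against mean CPM (log axis), with members in colour (bars are 95% counting intervals) and the 556 tested genes in grey. The miR-106b-25 genes lie near 0, and among the miR-106a-363 genes Mir19b-2 stands highest at 1.22.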

How the data were processed

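Each deposited table holds whole-number read counts per miRNA gene, as the authors made them, on either strand, the gene strand and the opposite strand. The build (mm10) and annotation (GENCODE M21) are as named in the readme files deposited with the tables, and adapters were trimmed per the labels' protocols. The program that aligned and counted reads is not given in the sources used here. Rows that name no gene (49.7% and 38.8% of the sum of all rows) stayed out of totals and tests. Replicates are biological samples per the labels, and p-values between them compare these 2 libraries against counting noise only.

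Symbols, positions and hairpins came from GENCODE M21 and mature sequences from RefSeq. Gene-strand counts were given per 1e+06 (CPM). Library ratios used TMM in edgeR 4.0.16 (R 4.3.3), a prior count of 0.5, and exact tests in scipy 1.17.1 at a threshold of 0.05. On data simulated for this comparison (556 genes, Poisson noise), the test recovered 69 of 100 genes set to 2-fold and 51 of 100 set to 0.5-fold. It called 1 of 356 unchanged ones. The library sizes were given and not estimated again, so these rates hold for counting noise only. Between the real libraries 41.5% of the genes were called. Named were the members, the miR-17-92 genes, genes that share a seed and average at least 10 CPM, and the rank neighbours of each cluster's leader. Mir6383 and Mir367 were named after their values were seen. Members, lists and tests were chosen with earlier results of these data known.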

Additional observations from a re-analysis of the deposited data

Results flagged for a closer look

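Reads that mapped to several places are listed in a row apart from the genes, and that row enters no level here. Replicate 1 had 18382947 of them and replicate 2 had 5599235. These are totals of whole libraries and are not measurements of the members, and the design has no control library. Mir92-2 and Mir19b-2 are the members whose mature sequence is encoded a second time. Whether their counts include or lack such reads was not tested.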

How the results depend on the processing

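Counting either strand moved the cluster sums, the member levels, the shares within and between clusters and the Mir93 to Mir25 ratio by less than the spread between replicates. It left the member calls at 2 higher and 1 lower, with 217 of 537 genes called. No paired analysis was possible because the samples form 1 group. Without replicate 1 or without replicate 2, the share of miR-106b-25 in both clusters ranged from 99.35% to 99.47%, that of Mir93 in its cluster from 50.8% to 52.4%, and that of Mir92-2 from 79.6% to 79.8%. Divided by hairpin length, Mir93 held 49.9% of its cluster, Mir92-2 75.6%, and miR-17-92 77.2% of the paralog clusters. With genes of shared mature sequence left out, miR-106b-25 held 99.92% of both clusters and miR-17-92 76.3% of the paralog clusters, and miR-106a-363 summed to 6.60 CPM. With Mir21a taken out of the library totals, miR-106b-25 summed to 12536 CPM and miR-106a-363 to 74.1 CPM.

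Direction between the libraries rests on the scaling. Library totals gave 0 members higher and 5 lower in replicate 2 (26 of all tested genes higher), with log2 ratios of -0.89 for Mir25, -0.65 for Mir92-2 and -0.84 for Mir20b, all above 0 with TMM. None was higher at an unadjusted p under 0.05 either. DESeq2 size factors (1.42.0) gave 1 higher and 2 lower, with Mir25 at -0.053, Mir106b called, and Mir92-2 no longer called (adjusted p = 0.0587, exact binomial test). Mir25 stood at -0.034 without a filter on counts and at -0.027 with a filter of 50 counts. Both gave 2 members lower, since Mir106b was called, where 12.4% of 804 genes and 27.8% of 356 genes were called lower (28.7% and 62.9% in either direction). With a prior count of 2, Mir18b stood at 0.013. The cause was not tested. Depth limits Mir18b and Mir20b, with 3 and 10 reads in replicate 2.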
